A study of Mus musculus with 9 samples.

Results

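DNA methylation was compared between Abl.1 cells grown with 2 µM and with 0.2 µM 5-aza-dC (5-aza-2'-deoxycytidine), as 3 libraries against 2 of the 9 libraries in the series. The comparison used all 1 kb tiles of the genome with at least 10 reads in each of these 5 libraries, which were 104460 of the 441418 tiles with any CpG read. The cells are 1 clone, Abl.1, of immortalised B cells whose strain label is 129S1/SvImJ x CAST/EiJ F1 and whose sex label is female, and both alleles were counted together. Cells stayed in drug until day 2, live cells were recovered on a density gradient, and CpG-rich fragments were sequenced after bisulfite conversion (reduced representation bisulfite sequencing, RRBS). By their labels the replicates are library preparations, which does not say that they came from separate cultures, so every p-value measures the spread between these libraries, which may be technical. RRBS reads no transcripts, so the B cell label was not checked against expression.

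Methylation of cytosine in CpG pairs is kept through cell division by DNMT1, which copies the mark to the new strand with its partner UHRF1. The cytidine analogue 5-aza-dC is phosphorylated in the cell, enters DNA during replication and traps DNA methyltransferases there, so that methylation is lost as cells divide. Most CpG islands, the dense CpG runs at many gene starts, are unmethylated in normal cells, whereas sparse CpGs in gene bodies and between genes are mostly methylated. Islands of germline and developmental genes are among those that can carry methylation in cell lines.

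The middle dose left more methylation than the low dose over most of the measured genome. It left less over the densest tiles that were methylated without drug, those with 80 or more CpGs. Of these 275 tiles, 213 lay within 1 kb of a gene start. Promoters where the sequence was itself measured show both directions. The 6 below are the 3 gene starts with the largest rise and the 3 with the largest fall among those that met a rule. The rule took called starts with at least 30 reads in each library over the 300 bases and over 1 kb either side. Library levels over that wider window could not overlap between doses. Starts of unknown strand and genes with only a provisional symbol were left out, and not every chromosome was searched. The ranking therefore holds among the genes that met the rule and not among all called starts. The choice was made after the values were seen. The rule was met by 58 genes that were higher and 34 that were lower at 2 µM. The 6 printed promoters are examples, and CG pairs were not compared over all the genes that met the rule. The sequences are from RefSeq (GRCm38.p6), run from 250 bases before to 50 after the gene start, are written 5′ to 3′ on the gene's strand, and carry each CG pair in capitals.
Gdpd3, higher at 2 µM (chr7:126766164-126766463, + strand): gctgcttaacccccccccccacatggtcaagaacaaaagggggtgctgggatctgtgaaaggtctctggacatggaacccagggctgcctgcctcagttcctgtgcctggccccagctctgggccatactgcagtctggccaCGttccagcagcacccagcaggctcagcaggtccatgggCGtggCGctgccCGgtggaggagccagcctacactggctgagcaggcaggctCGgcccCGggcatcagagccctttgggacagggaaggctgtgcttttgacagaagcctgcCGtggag
Arhgef2, higher at 2 µM (chr3:88629223-88629522, + strand): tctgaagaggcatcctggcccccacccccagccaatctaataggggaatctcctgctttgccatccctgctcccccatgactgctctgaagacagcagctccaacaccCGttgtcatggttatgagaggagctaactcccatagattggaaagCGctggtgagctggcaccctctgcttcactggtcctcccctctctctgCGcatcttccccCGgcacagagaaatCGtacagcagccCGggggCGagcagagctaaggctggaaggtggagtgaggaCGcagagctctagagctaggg
Taf1c, higher at 2 µM (chr8:119602597-119602896, - strand): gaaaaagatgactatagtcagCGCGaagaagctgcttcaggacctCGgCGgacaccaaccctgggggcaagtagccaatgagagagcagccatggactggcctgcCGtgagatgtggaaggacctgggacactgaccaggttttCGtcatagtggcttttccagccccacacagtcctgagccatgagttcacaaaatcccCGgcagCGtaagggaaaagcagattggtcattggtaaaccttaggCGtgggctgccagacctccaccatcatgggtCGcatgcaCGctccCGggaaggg
Fam184a, lower at 2 µM (chr10:53750860-53751159, - strand): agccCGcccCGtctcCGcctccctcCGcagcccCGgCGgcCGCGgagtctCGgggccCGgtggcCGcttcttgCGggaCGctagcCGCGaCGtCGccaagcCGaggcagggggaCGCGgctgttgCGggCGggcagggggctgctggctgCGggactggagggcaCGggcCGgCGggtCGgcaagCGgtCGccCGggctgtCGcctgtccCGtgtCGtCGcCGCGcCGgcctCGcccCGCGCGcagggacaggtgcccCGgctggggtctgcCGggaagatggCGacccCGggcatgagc
Tafa5, lower at 2 µM (chr15:87624980-87625279, + strand): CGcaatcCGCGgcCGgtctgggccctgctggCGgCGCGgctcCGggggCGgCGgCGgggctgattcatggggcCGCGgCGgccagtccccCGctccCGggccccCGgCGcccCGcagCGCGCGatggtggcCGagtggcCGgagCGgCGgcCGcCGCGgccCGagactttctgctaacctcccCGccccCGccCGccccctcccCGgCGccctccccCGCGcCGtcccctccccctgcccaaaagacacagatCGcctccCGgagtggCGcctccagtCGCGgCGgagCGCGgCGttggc
Barx1, lower at 2 µM (chr13:48662786-48663085, + strand): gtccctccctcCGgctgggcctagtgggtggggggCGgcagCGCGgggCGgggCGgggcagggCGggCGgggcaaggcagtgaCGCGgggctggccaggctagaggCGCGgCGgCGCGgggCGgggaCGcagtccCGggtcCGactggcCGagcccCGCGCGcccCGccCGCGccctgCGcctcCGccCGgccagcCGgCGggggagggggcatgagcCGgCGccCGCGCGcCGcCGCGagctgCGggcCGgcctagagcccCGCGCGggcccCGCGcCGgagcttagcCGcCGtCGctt

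The 3 promoters that were higher held 7, 8 and 12 CG pairs, and the 3 that were lower held 45, 47 and 50. At Gdpd3, a gene of the glycerophosphodiester phosphodiesterase family, the level over these 300 bases was 26.7% and 34.9% at 0.2 µM and 70.9%, 50.0% and 72.2% at 2 µM. At Arhgef2 it was 18.6% and 10.3% against 82.9%, 71.2% and 63.6%. At Taf1c, a subunit of the RNA polymerase I selectivity factor SL1, it was 27.4% and 24.5% against 52.6%, 58.7% and 53.7%. In all 3 the 2 µM libraries were the higher ones without overlap, an order that the rule already required over the wider window.

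The order was the opposite in the dense promoters. At Fam184a the levels were 78.3% and 76.6% at 0.2 µM against 59.7%, 58.8% and 53.1% at 2 µM. At Tafa5, which encodes a secreted chemokine-like protein of brain, they were 73.2% and 76.0% against 47.1%, 56.5% and 41.7%. At Barx1, a homeobox transcription factor gene, they were 80.3% and 70.8% against 46.7%, 63.8% and 62.3%. All 6 promoters were at 85.7% or above in each library with the solvent DMSO alone, although Gdpd3 had only 3 reads there in DMSO replicate 2. Over the whole window of 1 kb either side of the start, the adjusted p (binomial model with limma's moderation) lay between 0.00627 at Tafa5 and 0.0409 at Gdpd3.

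Over all tiles the mean level was 23.3% and 23.5% in the 0.2 µM libraries and 36.3%, 36.8% and 37.3% in the 2 µM libraries. The group means were 23.4% ± 0.170 (SD, n = 2) and 36.8% ± 0.507 (SD, n = 3), so the middle dose was 13.4 percentage points higher. The exact two-sided permutation p was 0.1, the smallest that 3 libraries against 2 can give, and this holds for every p of 0.1 below. The size depended on which tiles and reads were weighed: the difference was 8.40 points over tiles with 30 reads in each library and 5.27 points with all reads summed, each with an exact permutation p of 0.1. The median tile was at 21.9% at the low dose and 39.5% at the middle dose. In this bulk measurement, a level between 0 and 100% cannot tell a share of cells or alleles that lost methylation from an even loss in all of them.

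**Figure D1:**
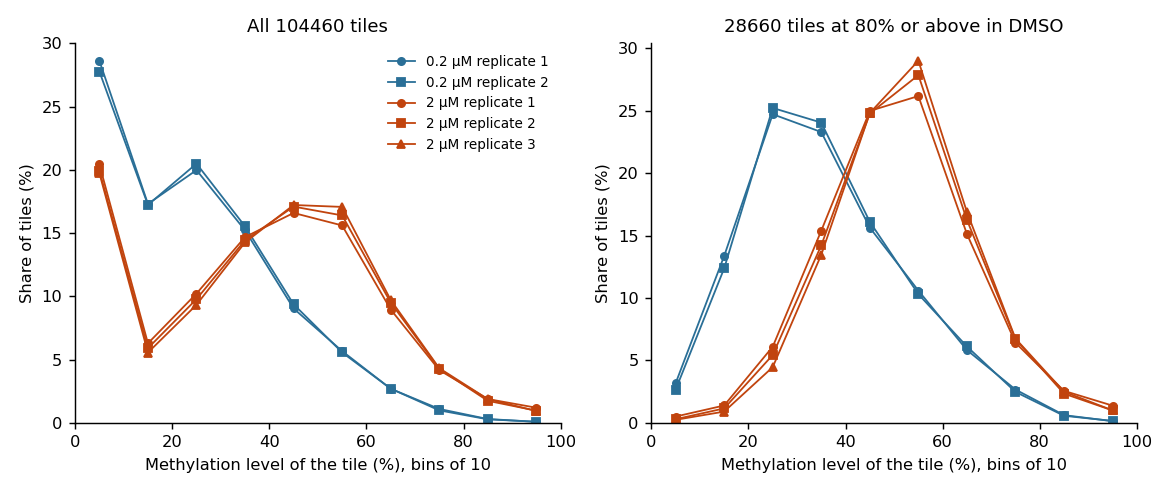
Share of tiles (y axis, %) in each 10-point bin of methylation level (x axis, %) for the 5 libraries, over all tiles (left) and over tiles at 80% or above in the pooled DMSO libraries (right); lines join the bins of 1 library. The 0.2 µM libraries pile up at 20 to 40% in the right panel and the 2 µM libraries at 40 to 60%.

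The plot of tile levels by library shows that the doses also differed in shape. Tiles under 10% made up 28.6% and 27.8% of all tiles at 0.2 µM and 20.4%, 19.9% and 19.7% at 2 µM. Tiles at 40 to 60% made up 14.7% and 14.9% at 0.2 µM against 32.2%, 33.5% and 34.3% at 2 µM. Nearly full methylation, at 80% or above, was rare at both doses, with a mean of 0.366% of tiles at 0.2 µM and 2.86% at 2 µM. The exact permutation p was 0.1 for each of these shares. The SD of levels over tiles was 18.4 points at 0.2 µM and 23.6 points at 2 µM, a spread that also holds the counting error of each tile. With 50 reads in each library the difference was smaller in each of these measures, at -4.18 points for tiles under 10%, 12 points for 40 to 60%, 0.188 points for 80% or above and 3.27 points for the SD.

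Tiles were then split by their level without drug, which both DMSO libraries measured in 72527 tiles. Tiles under 20% in DMSO, 21495 in number, had a mean of 3.24% in DMSO, 1.75% ± 0.00809 at the low dose (SD, n = 2) and 3.14% ± 0.125 at the middle dose (SD, n = 3). Tiles at 80% or above in DMSO, 28660 in number with a DMSO mean of 91.2%, had 35.5% and 35.8% in the 0.2 µM libraries and 50.5%, 51.2% and 51.8% in the 2 µM libraries. The intermediate 22372 tiles went from 56.5% in DMSO to 23.1% at 0.2 µM and 36.2% at 2 µM. The doses differed in the same direction in all 3 classes, with an adjusted exact permutation p of 0.1 each. In the class means, methylated tiles thus showed a middle dose between the untreated and low-dose levels, an order that the densest tiles did not share. The tiles at 80% or above in DMSO carry the density comparison that follows.

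The dose difference changed with CpG density. Density was counted as the CpG positions listed in a tile in any of the 9 libraries. With 1 to 4 CpGs the level was 23.7% at 0.2 µM and 39.4% at 2 µM, and with 5 to 9 it was 25.7% and 42.8%. With 10 to 19 CpGs it was 25.9% and 40.9%, with 20 to 39 it was 19.7% and 25.9%, and with 40 to 79 it was 13.4% and 14.3%. In the 2354 tiles with 80 or more CpGs the order of the means turned, with 14.5% and 14.6% at 0.2 µM and 13.6%, 13.5% and 13.8% at 2 µM. The median change in that class was still 0.0350 points, and 54.1% of its tiles were higher at 2 µM. Dense tiles are mostly unmethylated without drug, at 20.6% in DMSO in that class, so these classes mix tiles that had methylation to lose with tiles that had none. When only CpG positions read in all 5 libraries were counted, the change was 2.57 points in the class of 20 to 39, 0.165 points in that of 40 to 79 (exact permutation p = 0.2) and -0.422 points in the densest.

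Among the tiles at 80% or above in DMSO, the 2 doses related to density in different ways. At 0.2 µM the level climbed from 31.3% ± 0.364 with 1 to 4 CpGs to 33.4%, 35.7%, 42.6% and 56.9%, and reached 65.9% ± 0.177 (SD, n = 2) with 80 or more. At 2 µM it was 47.1% ± 0.565 in the sparsest class, then 50.4%, 52.9%, 54.9% and 55.4%, and 55.8% ± 0.579 (SD, n = 3) in the densest. The change from the low to the middle dose was therefore 17.1 points at 10 to 19 CpGs, -1.53 points at 40 to 79 and -10.1 points at 80 or more. In the densest class, 275 tiles, the libraries read 65.7% and 66.0% at 0.2 µM against 55.6%, 55.4% and 56.5% at 2 µM. DMSO levels were close in all 6 classes, between 89.9% and 92.0%. The adjusted exact permutation p was 0.1 in each class.

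**Figure D2:**
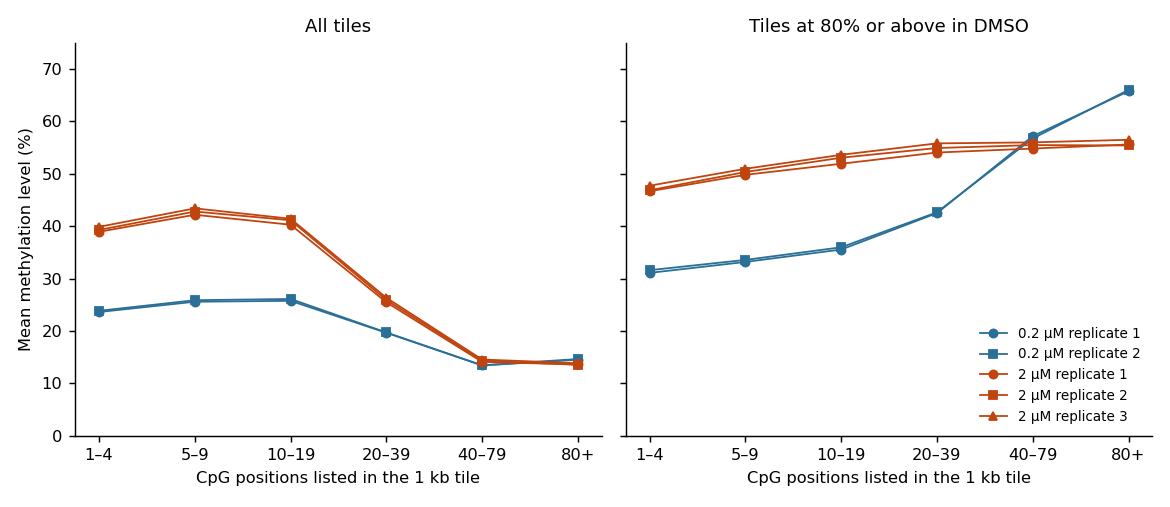
Mean methylation level (y axis, %) by CpG positions in the 1 kb tile (x axis) for the 5 libraries, over all tiles (left) and over tiles at 80% or above in DMSO (right); each line is 1 library and points are class means. In the right panel the 0.2 µM lines climb to 65.9% on average while the 2 µM lines end at 55.8%, and they cross in the class of 40 to 79 CpGs.

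The difference itself was tested as 1 value per library, the mean of tiles with 40 or more CpGs minus that of tiles with under 10. Among tiles at 80% or above in DMSO this value was 26.7 and 26.0 points at 0.2 µM and 6.25, 6.29 and 6.24 points at 2 µM (exact permutation p = 0.1). Over all tiles it was -11.2 points at 0.2 µM and -27.1 points at 2 µM (exact permutation p = 0.1). In finer steps of density, still at 80% or above in DMSO, the doses read 52.2% and 55.1% with 41 to 50 CpGs and 58.3% and 55.3% with 51 to 60. With over 100 CpGs they read 67.5% ± 0.434 (SD, n = 2) and 55.4% ± 1.04 (SD, n = 3), and 2.61% of those 115 tiles were higher at 2 µM. With up to 10 CpGs 86.6% of tiles were higher at 2 µM.

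The density count above depends on which CpGs RRBS reads, so CG pairs were also counted in the 300-base RefSeq promoters, as in the 6 printed ones. Of all 32851 promoters, 26.5% held 20 or more CG pairs and 38% held 0 to 4. Among those with reads and a DMSO level of 80% or above, the 118 promoters with 5 to 9 CG pairs were at 33.2% at 0.2 µM and 49.4% at 2 µM. The 240 with 10 to 19 were at 42.7% and 51.8%, and the 398 with 20 or more were at 61.3% ± 0.298 (SD, n = 2) and 54.3% ± 0.938 (SD, n = 3). The sign turned between these last classes, as it did for tiles, and the exact permutation p was 0.1 in each. In the densest class, 24.1% of promoters were higher at 2 µM. Only 12 promoters with 0 to 4 CG pairs could be compared, at 27.8% and 48.0%.

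Single tiles were tested with a binomial model of methylated over all reads, whose dispersion was moderated with limma. At a Benjamini-Hochberg adjusted p under 0.05, 6983 tiles (6.68%) were higher and 145 (0.139%) were lower at 2 µM. Library levels did not overlap in 46721 tiles (44.7%) with the 2 µM libraries higher and in 3390 tiles (3.25%) with them lower. Without any difference, 3 libraries against 2 separate in a given direction with a probability of up to 0.1. The share of lower tiles was not above that. When each tile was tested against the median change of all tiles, 0.69 on the natural log odds scale, 193 were higher and 1294 were lower, so the balance of the counts is a balance relative to no change. The calls rested on both 0.2 µM libraries: without replicate 1 or without replicate 2, with the lone library assumed to vary like the 2 µM ones, 0 tiles passed in either direction, while 14789 and 15134 tiles had an unadjusted p under 0.05 and were higher and 460 and 467 were lower.

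The tiles called higher had a median of 10 CpGs and a median level of 17.8% at 0.2 µM and 60.1% at 2 µM. Of the 6983, 4826 lay inside a gene away from its start, 915 within 1 kb of a start and 1242 outside genes. The tiles called lower had a median of 31 CpGs and median levels of 72.8% and 47.9%. Of these 145, 64 lay within 1 kb of a gene start, 32 elsewhere inside a gene and 49 outside genes, and 67 held 40 or more CpGs. Over all 104460 tiles the median was 8 CpGs, 10517 held 40 or more, and 27015 lay within 1 kb of a gene start, 48851 elsewhere inside a gene and 28594 outside genes.

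**Figure D3:**
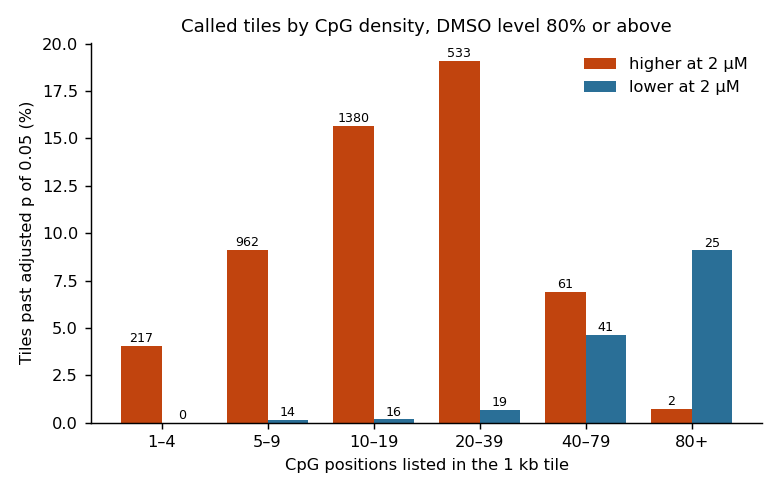
Share of tiles past an adjusted p of 0.05 (y axis, %) by CpG positions in the tile (x axis), among tiles at 80% or above in DMSO; bars are split by direction and the number above each bar counts its tiles. Calls higher at 2 µM reach 19.1% of the tiles with 20 to 39 CpGs and are 2 tiles in the densest class, where 25 tiles were lower.

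The plot of called tiles by density shows both shares within the methylated tiles. Calls higher at 2 µM made up 4.07% of the tiles with 1 to 4 CpGs, 15.7% with 10 to 19 and 19.1% with 20 to 39, then 6.91% with 40 to 79 and 0.727% with 80 or more. Calls lower at 2 µM were 14 tiles with 5 to 9 CpGs, 16 with 10 to 19 and 19 with 20 to 39, then 41 (4.64%) with 40 to 79 and 25 (9.09%) with 80 or more. Sparse tiles held fewer reads, with a median of 23 in the class of 1 to 4 CpGs over all tiles, which limits how many of them could pass.

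Among the called tiles inside genes, the rule for named tiles took the 12 largest changes each way from 2548 higher and 78 lower tiles that met it. It required library levels that do not overlap between the doses. Exons and introns were not analysed here. At Popdc2, which encodes a cAMP-binding membrane protein of heart and skeletal muscle, the tile chr16:38362001-38363000 spans the gene start. Its levels were 26.7% and 7.5% at 0.2 µM against 80.7%, 84.5% and 83.0% at 2 µM, beside 85.3% and 100% in DMSO. The change was 65.7 points (adjusted p = 0.00385 with limma's moderation), and the 2 µM libraries were near the untreated ones.

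At Evpl, which encodes the plakin envoplakin of the epidermal envelope, the tile chr11:116234001-116235000, 3165 bp from the start, had 17.9% and 15.9% at 0.2 µM and 78.3%, 82.2% and 87.1% at 2 µM. Its DMSO libraries read 76.9% and 61.5%, the latter from 13 reads. At Kmt2d, a histone H3 lysine 4 methyltransferase gene, the tile chr15:98855001-98856000 in the gene body had 3.03% and 13.6% against 70%, 69.1% and 81.1%. At Ciz1, whose zinc finger protein takes part in DNA replication, the tile chr2:32375001-32376000 had 11.9% in both 0.2 µM libraries against 75.6%, 63.3% and 82.6%. At Brpf1, a scaffold of MYST histone acetyltransferase complexes, the tile chr6:113319001-113320000 had 20.9% and 17.5% against 69.2%, 82.9% and 83.6%. That no 2 µM library of these tiles was as low as a 0.2 µM library follows from the rule for named tiles.

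The other 7 tiles of this group lay in Vars (valyl-tRNA synthetase), Sema4c (a semaphorin), Slc25a28 (the mitochondrial iron carrier mitoferrin 2), Anxa11 (an annexin), Ndst1 (a heparan sulfate sulfotransferase), Tiam1 (a Rac exchange factor) and Zfp341 (a zinc finger transcription factor). Their changes lay between 60.4 points at Zfp341 and 65.3 points at Vars. Several varied widely within a dose: Sema4c had 43.8%, 96.7% and 75% at 2 µM, and Zfp341 had 5.88% and 33.3% at 0.2 µM. All 12 tiles held 9 to 22 CpGs and 30 to 97 reads per library.

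**Figure D4:**
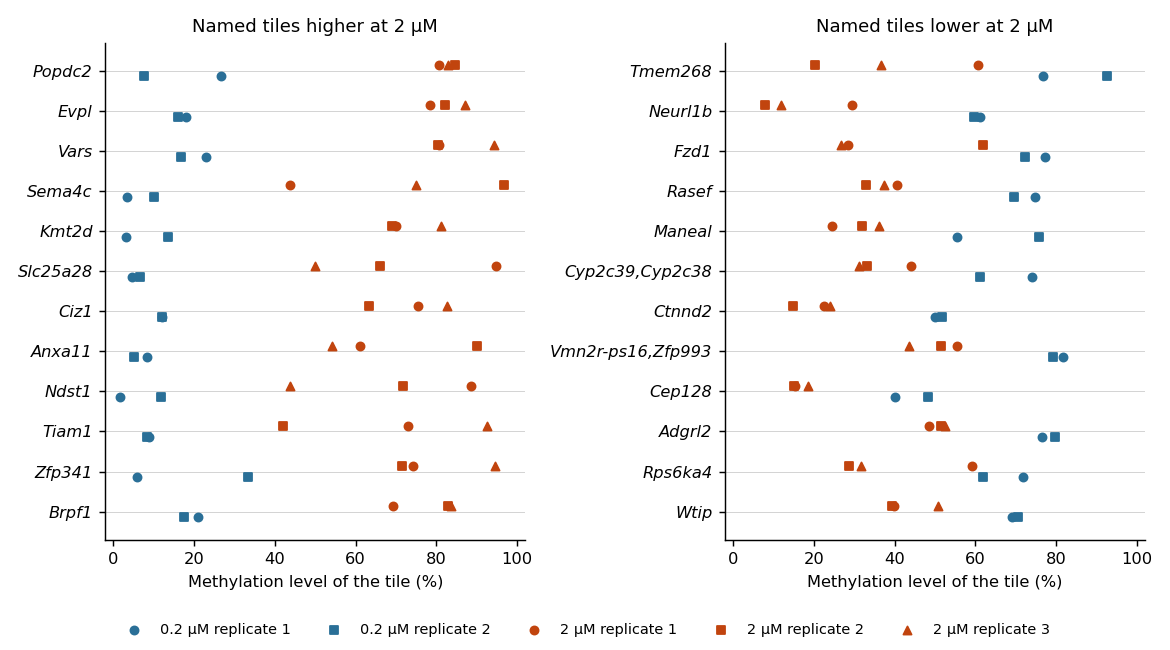
Methylation level (x axis, %) of the 12 named tiles with the largest rise (left) and the 12 with the largest fall (right) from 0.2 µM to 2 µM; each row is the tile of 1 gene or overlapping pair and each symbol is 1 library. Rows were chosen for libraries that do not overlap between doses, and the 0.2 µM symbols reach 33.3% at most on the left and stand at 40.2% or more on the right.

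The 12 lower tiles held 7 to 78 CpGs and changed by less than the 12 higher ones, which were the extremes of 2548 tiles against 78. At Fzd1, which encodes a Frizzled receptor for Wnt ligands, the tile chr5:4758001-4759000 at the gene start had 77.3% and 72.4% at 0.2 µM and 28.5%, 61.9% and 26.8% at 2 µM. At Maneal, a gene related to endo-alpha-mannosidase, the tile chr4:124861001-124862000 next to the start had 55.5% and 75.8% against 24.6%, 31.8% and 36.0%. At Wtip, which encodes a LIM domain protein, the tile chr7:34133001-34134000 at the start had 69.0% and 70.6% against 39.8%, 39.4% and 50.7%. At all 3 DMSO was between 81.9% and 96.4%. The rule for named tiles fixed that every 2 µM library was below every 0.2 µM library.

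Away from gene starts, the tile chr3:148988001-148989000 in Adgrl2, the gene of the adhesion receptor latrophilin 2, held 78 CpGs and 256 to 454 reads per library. Its levels were 76.6% and 79.8% at 0.2 µM against 48.5%, 51.5% and 52.4% at 2 µM, a fall by 27.4 points (adjusted p = 0.0129 with limma's moderation). At Neurl1b, an E3 ubiquitin ligase gene, the tile chr17:26431001-26432000 had 61.2% and 59.8% against 29.4%, 7.89% and 11.8%. At Cep128, a centriole gene, the tile chr12:91164001-91165000 had 40.2% and 48.4% against 15.4%, 15.2% and 18.6%. In these 3 tiles too the rule fixed that every 2 µM library was below both 0.2 µM libraries.

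The remaining 6 lay in Tmem268, Rasef, Ctnnd2 (delta-catenin), Rps6ka4 (the kinase MSK2), the overlapping Cyp2c39 and Cyp2c38, and the overlapping Vmn2r-ps16 and Zfp993. Cyp2c, vomeronasal and zinc finger genes have near-identical copies, so reads of the last pair of tiles may be split between copies and their values are uncertain. In Tmem268, with 7 CpGs, the 2 µM libraries ranged from 20.4% to 60.6%. Across the 12 lower tiles the change ran from -45.4 points at Tmem268 to -26.5 points at Wtip, with an adjusted p of at most 0.0482 by limma's moderation.

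Some genes held many called tiles. Gse1, which encodes a subunit of a histone deacetylase corepressor complex, had 17 higher tiles of 107 measured. Myo18a, an unconventional myosin gene, had 13 of 28, Septin9, a cytoskeletal GTPase gene, 13 of 53, Bahcc1, which encodes a reader of histone methylation, 12 of 28, and Dnah17, an axonemal dynein gene, 12 of 38. None of these 5 genes had a lower tile at this threshold. Over all tiles 6.68% were called higher, and 9.88% of those inside genes away from starts. The median change of the 5 genes over all their measured tiles lay between 16.6 points in Septin9 and 26.9 points in Myo18a. It was 11.5 points over all tiles and 16.9 points over tiles inside genes away from starts. These genes were picked for their called tiles, which by itself favours a high median. Lower tiles were scattered: Fzd3, another Frizzled gene, Tafa5 and the immunoglobulin kappa locus Igk had 2 each, and the other genes had 1. Igk also had 2 higher tiles, and its median change over 57 tiles was 12.9 points.

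The doses differed by 17.4 points in gene bodies, 14 points outside genes and 5.34 points near gene starts, the last 2.86 points over tiles with 30 reads in each library. Tiles within 1 kb of a gene start had 13.4% at 0.2 µM and 18.7% at 2 µM, tiles elsewhere inside genes had 26.0% and 43.4%, and tiles outside genes had 28.4% and 42.4%. With all densities pooled, gene bodies were thus below the tiles outside genes at 0.2 µM and above them at 2 µM. This was examined at matched density among tiles at 80% or above in DMSO. There the mean of gene bodies was below that outside genes at 0.2 µM, and it was not above it at 2 µM in any class that follows. With 10 to 19 CpGs, gene bodies minus outside was -8.94 and -9.0 points at 0.2 µM and -0.994, -0.687 and -0.631 points at 2 µM, beside 2.71 points in DMSO. With 20 to 39 CpGs it was -11.2 points at 0.2 µM and -1.34 points at 2 µM, beside 3.43 points in DMSO. With 5 to 9 CpGs the values were -5.01 and -0.00798 points, with 1 to 4 CpGs they were -2.72 and -0.606 points, and the exact permutation p was 0.1 in each class.

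Calls followed the same positions. With 20 to 39 CpGs and a DMSO level of 80% or above, 27.5% of gene body tiles were called higher, against 3.17% outside genes and 14.8% near gene starts. Near gene starts the 490 tiles with 40 to 79 CpGs were at 59.9% at 0.2 µM and 55.0% at 2 µM, and the 213 tiles with 80 or more were at 66.2% and 55.6%. In gene bodies the 329 tiles with 40 to 79 CpGs were at 52.7% and 55.7%, and the 58 tiles with 80 or more were at 64.2% and 56.4%. Outside genes the 64 tiles with 40 to 79 CpGs were at 55.9% and 56.7%. At 40 to 79 CpGs the mean thus fell only near gene starts.

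**Figure D5:**
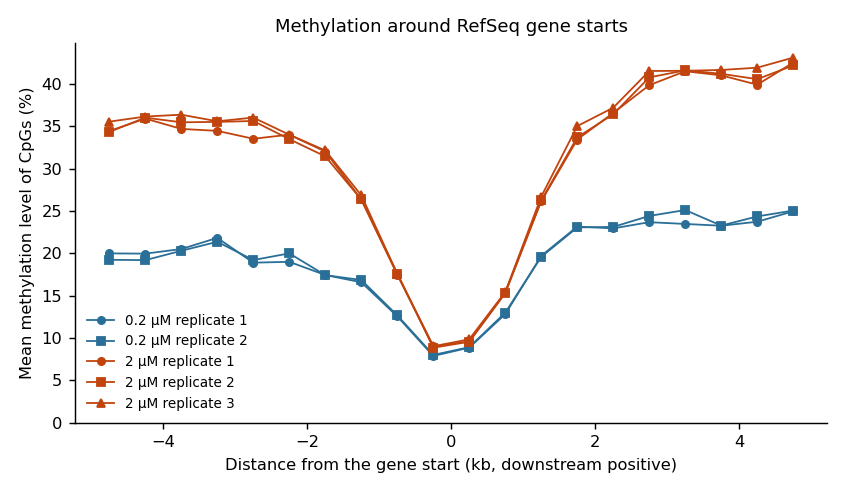
Mean methylation level of CpGs (y axis, %) in 500 bp bins by distance from the start of RefSeq genes (x axis, kb, downstream positive); each line is 1 library. The 5 libraries lie within 7.95% to 9.67% on group average in the bins next to the start and separate with distance, to 25.0% and 42.6% in the last bin downstream.

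The profile around gene starts shows where the doses separate. In the 500 bp before the start the CpGs of the low dose were at 7.95% ± 0.0861 (SD, n = 2), and those of the middle dose at 8.97% ± 0.0999 (SD, n = 3). At 1000 to 1500 bp downstream they were at 19.6% and 26.4%, and at 4500 to 5000 bp downstream at 25.0% and 42.6%. At 4500 to 5000 bp upstream they were at 19.6% and 34.8%.

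Windows of 1 kb either side of gene starts tie these values to genes. Of 20641 windows, 387 (1.87%) were higher and 80 (0.388%) were lower at 2 µM by the same test, and with 1 window per gene, the one with the most reads, 271 (1.57%) and 73 (0.422%) of 17286. The median called window held 23 CpGs when higher and 124 when lower. For 3587 windows the strand of the gene was not known and both gene ends were used, so these may lie at a 3′ end. Without 0.2 µM replicate 1 the counts fell to 3 and 1, and without replicate 2 to 2 and 0, while 1609 and 1689 windows had an unadjusted p under 0.05 and were higher and 299 and 272 were lower. Without 2 µM replicate 1 they were 12 and 4, and without 2 µM replicate 2 they were 188 and 35. With 500 bp either side 105 were higher and 39 lower.

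The 6 windows with the largest rise were at Popdc2, Rgs3, Prr29, Tkfc, Abhd16b and Tdgf1. At Rgs3, a regulator of G protein signalling, the levels were 25.0% and 13.2% at 0.2 µM against 77.3%, 68.9% and 65.6% at 2 µM. At Tkfc, the triokinase gene, they were 12.5% and 13.6% against 61.4%, 55.0% and 66.3%. At Tdgf1, which encodes the Nodal co-receptor Cripto, they were 20.3% and 11.1% against 66.7%, 73.5% and 48.6%. The 6 windows held 11 to 27 CpGs. Named windows were chosen for levels that do not overlap, so no 2 µM library could be as low as a 0.2 µM library.

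The 6 with the largest fall were at Ranbp17, Fam184a, Prr18, Tafa5, Aff2 and Zcchc3, with 60 to 217 CpGs. At Ranbp17, of the importin family of nuclear transport receptors, the levels were 74.6% and 77.3% at 0.2 µM against 51.8%, 61.7% and 50.1% at 2 µM. At the X-linked Aff2, a transcription elongation factor gene, they were 61.2% and 69.6% against 44.2%, 50.9% and 40.1%. At Prr18 they were 71.3% and 78.7% against 60.7%, 59.3% and 43.2%. The falls lay between 20 and 21.4 points and the rises between 47.2 and 62.4 points. These sizes are not on equal terms. The rising windows held 30 to 151 reads per library and the falling ones 231 to 1826. They were also picked among 387 and 80 called windows.

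Gene lists were described by their windows, 1 per gene, beside the medians of all 17286 genes, 1.03% at 0.2 µM and 1.86% at 2 µM. Of all these genes, 2190 had an unadjusted p under 0.05 and were higher (12.7%) and 379 were lower (2.19%), and counts of members at an unadjusted p are read against these shares. For the DNA methylation machinery, 23 of 25 genes were measured, with medians of 0.887% and 1.19%, and 1 was called. That gene was Dnmt3l, the cofactor of the de novo methyltransferases in germ cells, with 21.1% and 29.0% at 0.2 µM and 100%, 70.8% and 76.2% at 2 µM, from as few as 13 reads. The maintenance enzyme Dnmt1 had at most 0.870% in any of the 5 libraries, and Uhrf1 had 1.37% and 2.48% against 1.80%, 1.79% and 6.47%. Tet1, which oxidises methylcytosine, had 10.1% and 10.8% against 26.9%, 13.8% and 24.1% (adjusted p = 0.118 with limma's moderation).

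The genes of 5-aza-dC uptake and metabolism, 18 of 21 measured, had no called window by this test, and 1, Tk1, had an unadjusted p under 0.05. Tk1 had 3.57% and 4.31% at 0.2 µM and 11.2%, 15.2% and 13.6% at 2 µM (adjusted p = 0.310 with limma's moderation). Dck, the kinase that activates the drug, had at most 0.610% in any library. Cda, the deaminase that inactivates it, had 3.41% and 9.31% at 0.2 µM and 10.6%, 16.7% and 10.6% at 2 µM (adjusted p = 0.327 with limma's moderation). Among p53 targets and cell cycle inhibitors, 29 of 30 measured, none passed and 3 had an unadjusted p under 0.05, with medians of 0.504% and 0.626%. The 22 of 35 B lineage genes measured had medians of 0.579% and 0.849%, and none passed by limma's moderation and 4 had an unadjusted p under 0.05.

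Germline genes carried methylation at their starts without drug, with a median of 91.9% in DMSO over the 27 of 32 measured. Their medians were close at the 2 doses, 49.3% and 51.4%, and the median change was 2.39 points. Of the 84 tiles of these genes, 6 (7.14%) were called higher and 1 (1.19%) lower, against 6.68% and 0.139% of all tiles. At Ddx4, the germ cell RNA helicase gene, the window had 76.2% and 74.6% at 0.2 µM and 36.5%, 63.7% and 49.7% at 2 µM (adjusted p = 0.0637 with limma's moderation), and its tile chr13:112652001-112653000 with 51 CpGs was called lower, at -25.6 points (adjusted p = 0.0234). At Sycp1, a synaptonemal complex gene, it had 70.7% and 65.8% against 47.1%, 41.3% and 56.0% (adjusted p = 0.146 with limma's moderation). At Dmrtb1, a spermatogenesis transcription factor gene, the order was the opposite, 39.3% and 38.4% against 51.5%, 56.2% and 46.1% (adjusted p = 0.222 with limma's moderation). The called window, at an end of the meiotic telomere gene Majin whose strand was not known, had 36.6% and 33.3% against 60.7%, 63.5% and 71.4%.

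Imprinted genes with germline differentially methylated regions had a median of 75.8% in DMSO over 15 of 18 genes. Their medians were 49.5% at 0.2 µM and 50.1% at 2 µM, below the DMSO median at both doses. None of their windows passed, with 1 at an unadjusted p under 0.05 by limma's moderation. Of the 58 tiles of these genes, 0 were called higher and 1 (1.72%) lower, against 6.68% and 0.139% of all tiles. At Grb10, an imprinted growth inhibitor gene, the window had 74.1% and 72.5% at 0.2 µM and 49.2%, 70.4% and 43.8% at 2 µM (adjusted p = 0.0928 with limma's moderation), and its tile chr11:12026001-12027000 with 64 CpGs was called lower, at -20.2 points (adjusted p = 0.0386). Zrsr1, another imprinted gene, had 32.0% and 29.0% against 35.3%, 39.9% and 37.7%. Grb10 and Zrsr1 thus went in opposite directions, and neither window was called.

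Among developmental regulators only single windows were called. Of the 549 tiles of the developmental transcription factors, 14 (2.55%) were called higher and 4 (0.729%) lower, against 6.68% and 0.139% of all tiles. Over 84 of 86 measured developmental transcription factors the medians were 33.9% and 37.8%, with 1 window called in each direction and 8 higher and 15 lower at an unadjusted p under 0.05. Gata2, a blood stem cell regulator, had 9.48% and 5.75% at 0.2 µM and 17.6%, 18.9% and 18.9% at 2 µM. Hand2, a heart and limb regulator, had 71.3% and 70% against 54.2%, 51.4% and 46.8%. Among 36 of 39 Hox genes, Hoxa5 was called, with 68.0% and 66.3% against 47.8%, 49.1% and 56.1%. At an unadjusted p under 0.05, 7 Hox windows were higher and 2 lower, and the median change over the list was 3.58 points. Hoxb2, at an end of unknown strand, had 19.9% and 21% against 23.1%, 27.2% and 28.3% (adjusted p = 0.308 with limma's moderation), and Hoxd11 had 64.2% and 59.8% against 43.4%, 53.9% and 54.2% (adjusted p = 0.0731 with limma's moderation). In the 98 tiles of developmental transcription factors at 80% or above in DMSO, with a median of 41 CpGs, the median change was -3.42 points, against 16.1 points and 9 CpGs over all such tiles.

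The 17 of 33 measured T cell, myeloid and erythroid genes had medians of 8.16% at 0.2 µM and 24.2% at 2 µM, and 31 olfactory and vomeronasal receptor genes had 26.5% and 41.8%. In each list 1 window was called, and it was higher: Cebpe, a granulocyte regulator, at a gene end of unknown strand with 17.9% and 24.4% against 71.1%, 37.8% and 47.3%, and Olfr1416 with 0% and 16.1% against 41.2%, 52.2% and 66.7%. Receptor genes have near-identical copies, so these values are uncertain. Bcl11b, a T cell regulator, had 64.8% and 64.7% against 54.4%, 58.3% and 52.4% (adjusted p = 0.221 with limma's moderation). The 34 clustered protocadherin genes had medians of 35.7% and 44.4%, and none passed by limma's moderation, with 14 higher at an unadjusted p under 0.05.

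Immune gene lists held 1 higher window each. Oasl1, an interferon-induced gene of the oligoadenylate synthetase family, had 16.4% and 18.1% at 0.2 µM and 54.1%, 38.3% and 63.2% at 2 µM, among 20 interferon and innate sensing genes with medians of 0.475% and 0.557%. Ciita, the master regulator of MHC class II genes, had 17.9% and 14% against 84.2%, 78.8% and 45.8% at a gene end of unknown strand, among 26 antigen presentation genes with medians of 0.664% and 1.06%. Of 309 Zfp genes, Zfp516 at such an end was higher and Zfp518b was lower, the latter with 62.3% and 63.0% against 41.9%, 49.4% and 46.2%. With 1.57% and 0.422% of all genes called, 1 or 2 calls in a list describe those genes and not the list.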

How the data were processed

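RRBS libraries of Abl.1 cells were deposited as 1 table per library, with a CpG position, the methylated over all reads as text, and a score. The authors' deposited score, from 0 to 1000, equalled the methylated share times 1000 in every line and served only as that check, and the read counts came from the deposited text entry. The build was mm10 per the submitters' processing notes, and all 256267 listed CpGs inside RefSeq GRCm38.p6 promoter sequences lay on a CG pair. The aligner, caller and read filters were not given in sources used here. Lines of unusual width and repeated positions were dropped. The 5 libraries held 13049179 to 15932239 reads over CpGs, with a median of 4 or 5 per CpG. PCR copies were not separated, and strain variants were not removed.

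Reads were summed in 1 kb tiles. A tile level of 50% has a 95% Wilson interval from 23.7% to 76.3% with 10 reads and from 40.4% to 59.6% with 100 reads, which covers counting error only. Read numbers were scaled to an effective size for the correlation of reads within a tile, estimated in 5 coverage classes at 0.0132 to 0.0497. A binomial model gave the dispersion, which was moderated with limma 3.58.1 along coverage and kept at 1 or above, and p-values were adjusted by Benjamini-Hochberg over all tiles or windows. The prior dispersion was first estimated from all tiles and gave 0 calls. It was then estimated from tiles pooled at 10 to 90%, a change made after seeing that result. On simulated reads for the 104460 tiles, the test called 28 of 200 tiles changed by 1.5 on the log odds scale with 2 unchanged ones, and 175 of 200 changed by 3 with 6 unchanged ones. With 20000 tiles changed by 1.5, 2.69% of its calls were unchanged tiles. The simulated reads followed the fitted model and its read correlation, and unchanged tiles had no shift between doses. The simulation therefore does not measure the share of false calls in the real libraries.

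An exact two-sided permutation test compared library values. A change is the mean level at 2 µM minus that at 0.2 µM, in percentage points. Genes and starts came from RefSeq GRCm38.p6 tables, with both gene ends used where no strand was known. Gene windows for the lists took 1 window per gene. Named tiles and windows were past an adjusted p of 0.05 with 30 reads in each library, no overlap between doses and a change of at least 15 points in the unweighted mean over CpGs read in all 5 libraries. The tiles had to overlap a gene with a full name, and the 12 tiles and 6 windows with the largest rise and fall, 1 per gene, were taken, with the 5 genes with the most called tiles and up to 4 members of each list by reads. Other list members were named because they were called or have a known part in the pathway, after their values were seen. The members and lists were chosen with earlier results of these data known. Python 3.11.15 and R 4.3.3 were used.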

Additional observations from a re-analysis of the deposited data

How the results depend on the processing

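The mean level, spread, density, DMSO, position and X chromosome results, 20 in all, kept their direction in all 150 alternatives run (other read minimums, CpG sets, density measure, DMSO library, each library left out). None of these could reach 0.05, and the report gives the sizes that moved by over 1.5 times, beside 1.08 points for the share of tiles at 80% or above with 20 reads. Without 1 library the density contrast among tiles at 80% or above in DMSO lay between -20.5 and -19.8 points. Counts of called tiles moved more, as given here higher first. They were 0 and 0 with limma on arcsine levels (30205 and 1406 with an unadjusted p under 0.05), 0 and 0 with the prior dispersion from all tiles (15018 and 369), 15631 and 412 with reads not scaled, and 193 and 1294 relative to the median change. With 20 reads 237 were lower, with 30 reads 4357 and 246, and with all 9 libraries in the fit 240 were lower. Leaving out 1 library gave 0 to 7156 higher and 0 to 136 lower tiles, with 4029 and 97 without 2 µM replicate 3. Gene start windows gave 0 and 0 with limma on arcsine levels (4017 and 609 unadjusted), 105 and 39 with 500 bp either side, and 2 to 262 and 0 to 58 without 1 library.

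Replicate numbers gave no sign of pairing tile by tile: over 31751 tiles with 50 reads the correlation of replicate 1 minus 2 between doses was -0.01. This check does not see a shift common to all tiles, so pairing of the libraries is not excluded. With the replicate block, which drops 2 µM replicate 3, 0 tiles and 0 windows passed in either direction (19552 and 664 tiles, and 1971 and 324 windows, unadjusted). The planned count of CpGs in the genome sequence was not run, for want of a genome here. The cause of these shifts was not tested.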

Other observations

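On the X chromosome the 3456 tiles had levels of 29.6% and 29.7% in the low-dose libraries against 40.7%, 41.9% and 42.2% in the others, and the 100996 autosomal tiles had 23.2% ± 0.174 (SD, n = 2) and 36.6% ± 0.500 (SD, n = 3). X minus autosomes was 6.5 points at 0.2 µM and 4.98 points at 2 µM (exact permutation p = 0.1, the smallest these libraries allow). Of tiles whose DMSO level was 80% or above, the 889 X tiles had 42.5% and 52.3% and the 27766 autosomal tiles 35.4% and 51.1%, so X and autosomes were farther apart at the low dose than at the middle dose. Of the autosomes, chromosome 11 had the largest mean change, 15.5 points over 8272 tiles with 964 called higher, and chromosome 1 the smallest, 11.7 points over 6054 tiles with 271 called higher; the difference between chromosomes was not tested.

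The tiles at 80% or above in DMSO also differed in their extremes. The level under which 10% of them lay was 16.2% and 16.9% at 0.2 µM against 31.8%, 33.3% and 34.1% at 2 µM, and the level under which 90% of them lay was 58.7% and 58.8% against 70% in all 3 libraries. In tiles under 20% in DMSO, the 0.2 µM mean was below the 2 µM mean in every density class, from 2.26% and 4.93% with 1 to 4 CpGs to 1.36% and 1.80% with 80 or more, where DMSO read 1.93%.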
